A study of Mus musculus with 167 samples.

Results

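The measurements below concern 10 genes that hepatocytes around the central vein transcribe and that depend on Wnt signalling there: Axin2, Lgr5, Rnf43, Tbx3, Cyp2e1, Cyp1a2, Oat, Slc1a2, Lect2 and Rgn. They were chosen by name, as a set of pericentral Wnt target genes, with earlier results of these libraries known. All 10 were found among the 39179 gene IDs of the deposited table, and all 10 passed the filter on low counts in every comparison. The study sequenced polyadenylated RNA from the flash-frozen livers of C57BL/6 mice that carry a CAG repeat of defined length in 1 copy of the huntingtin gene, Htt. Expansion of this repeat causes Huntington disease in people. The 6 knock-in lines, Q20, Q80, Q92, Q111, Q140 and Q175, are named for their repeat number, and all their animals were heterozygous. The lines other than Q20 were each housed with mice of their own genotype. Wild-type (WT) littermates housed with the Q20 mice served as a further control. Livers were taken at 2, 6 and 10 months of age from 4 females and 4 males per genotype and age, except Q80 at 2 months (3 females and 5 males by label) and at 10 months (4 females and 3 males), which gave 21 groups with 1 library per liver. Q20, with a repeat as short as that of unaffected people, is the control for the knock-in itself, so each longer allele was compared with Q20.

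The liver lobule is organised along the blood flow, from the portal triad to the central vein. Endothelial cells of the central vein secrete Wnt ligands and the potentiator R-spondin 3, which act over a short distance. In the hepatocytes they reach, beta-catenin escapes the destruction complex and, with TCF/LEF factors on DNA, turns on genes of glutamine, xenobiotic and amino acid metabolism, while hepatocytes near the portal triad express genes of urea synthesis and gluconeogenesis. Axin2 is a scaffold of the destruction complex and a negative feedback target found in nearly every tissue with Wnt activity. Lgr5 is a receptor for R-spondins, and Rnf43 is a membrane E3 ligase that removes Frizzled receptors and is itself restrained by R-spondins. Tbx3 is a T-box transcription factor made by pericentral hepatocytes. Cyp2e1 oxidises ethanol and paracetamol, Cyp1a2 oxidises caffeine and aromatic amines, Oat (ornithine aminotransferase) breaks down ornithine, and Slc1a2 is a glutamate transporter. Lect2 is a protein secreted into blood, and Rgn (regucalcin) is a gluconolactonase and calcium-binding protein.

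The stretches upstream of the start sites of 5 of these genes are printed because TCF/LEF factors are the step at which Wnt signalling meets DNA: 4 hold letters of the TCF/LEF motif, and Axin2, the general feedback target, is shown beside them without. They come from the RefSeq promoter table (GRCm38.p6), which matched 7 of the 10 genes with 8 windows. The 250 bases before each start were searched on both strands for the letters CTTTGAT or CTTTGAA, forms of the TCF/LEF motif that do not overlap each other. Printed bases run 5′ to 3′ on the strand of the gene, stop before the first base that GENCODE M21 annotates as an exon of the gene, and capitals mark a match in either orientation. The window of Slc1a2 (chr2:102706188-102706355, plus strand) lies within the gene, at a start downstream of the outermost one. The others are Cyp2e1 (chr7:140763569-140763738, plus strand), Cyp1a2 (chr9:57683704-57683905, minus strand), Lect2 (chr13:56548539-56548788, minus strand) and Axin2 (chr11:108920099-108920348, plus strand).
Cyp2e1: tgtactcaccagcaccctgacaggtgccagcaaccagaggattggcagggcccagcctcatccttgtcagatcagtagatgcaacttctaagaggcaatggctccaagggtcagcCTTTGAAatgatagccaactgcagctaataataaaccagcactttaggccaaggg
Cyp1a2: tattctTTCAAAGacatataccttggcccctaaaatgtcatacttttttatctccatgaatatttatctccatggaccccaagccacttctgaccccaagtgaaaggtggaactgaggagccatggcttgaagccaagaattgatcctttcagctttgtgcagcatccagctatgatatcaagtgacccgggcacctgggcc
Slc1a2: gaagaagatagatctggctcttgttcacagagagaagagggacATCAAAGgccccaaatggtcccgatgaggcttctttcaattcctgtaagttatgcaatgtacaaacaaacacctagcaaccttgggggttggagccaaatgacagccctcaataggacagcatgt
Lect2: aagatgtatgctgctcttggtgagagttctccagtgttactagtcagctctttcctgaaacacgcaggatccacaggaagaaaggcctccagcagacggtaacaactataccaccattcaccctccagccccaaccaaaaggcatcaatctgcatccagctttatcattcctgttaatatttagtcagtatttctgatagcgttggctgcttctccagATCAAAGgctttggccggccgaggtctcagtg
Axin2: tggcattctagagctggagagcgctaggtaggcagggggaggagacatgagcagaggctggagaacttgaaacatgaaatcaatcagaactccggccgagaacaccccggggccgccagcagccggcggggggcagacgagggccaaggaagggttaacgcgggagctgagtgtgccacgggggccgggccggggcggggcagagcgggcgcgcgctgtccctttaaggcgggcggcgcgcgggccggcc
Counted from the RefSeq start, the match begins at -135 in Cyp2e1 (CTTTGAA, plus), -244 in Cyp1a2 (CTTTGAA, minus), -207 in Slc1a2 (CTTTGAT, minus) and -32 in Lect2 (CTTTGAT, minus). Axin2, Oat and Rnf43 have neither set of letters in their windows. Of all 32851 RefSeq windows of that length, 7.5% hold CTTTGAT or CTTTGAA, so a match is a description of these letters and not a mapped binding site.

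In GENCODE M21 (GRCm38) the protein-coding genes lie at chr7:140763739-140774987 (Cyp2e1), chr9:57676937-57683703 (Cyp1a2), chr7:132557478-132576398 (Oat), chr11:108920349-108950783 (Axin2), chr10:115450311-115587780 (Lgr5), chr5:119670669-119684724 (Tbx3), chr2:102658659-102790784 (Slc1a2), chr13:56542464-56548502 (Lect2), chr11:87662722-87735539 (Rnf43) and chrX:20549787-20562089 (Rgn). Rgn is the only one of the 10 on a sex chromosome.

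Libraries held 32025244 to 57151736 counts (median 38663519), and the scarcest of the 10 genes, Axin2, had at least 2.27 CPM (counts scaled by library depth) in each of them. The 10 hepatocyte markers were all present, with summed levels between 83160 and 164300 CPM across libraries. Htt, the targeted gene, fell with repeat length at every age, by 0.27 ± 0.04, 0.39 ± 0.04 and 0.42 ± 0.05 (SE) on the log2 scale per 100 repeats at 2, 6 and 10 months. In the Q80 library labelled male M5 at 2 months, 4 Y-linked genes were all at 0 CPM and Xist was at 0.535 CPM, against 110 to 263 CPM of the Y-linked genes in the other 83 libraries labelled male and 346 to 1060 CPM of Xist in the 83 labelled female. Its Slc1a2 level of 297.7 CPM and Lect2 level of 109.1 CPM were the highest of any library labelled male at that age, and no call on the 10 genes changed without it. Another 10 libraries held RNA of muscle, red cells or bile duct (Acta1 over 1, Hba-a1 over 1000 or Krt19 over 10 CPM), among them 3 of the Q175 libraries at 10 months. The 48 knock-in libraries of 6 months carry names of another form (LB) than all others, so the Q20 against WT comparison at 6 months and every knock-in age comparison with 6 months cannot be told apart from whatever that difference records. In whole liver, a smaller pericentral zone and less RNA per pericentral cell cannot be told apart.

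Levels spanned a wide range. Per length, in FPKM (fragments scaled by transcript length and library depth), Cyp2e1 led with a mean of 3961, before Rgn (704.6), Oat (461.7), Cyp1a2 (376.5), Lect2 (97.25), Slc1a2 (37.89), Rnf43 (8.316), Tbx3 (5.217), Axin2 (1.967) and Lgr5 (1.907). Receptor, scaffold, ligase and transcription factor had the lowest levels, and the enzymes the highest. Neighbours in this order differed by less than the larger of their SDs for Axin2 (SD 0.76) and Lgr5 (SD 0.577) and for Oat (SD 137.4) and Cyp1a2 (SD 76.7), and by more for all other neighbours.

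Among the signalling genes, Axin2 had 7.41 ± 2.65 CPM (SD over all libraries) and ranged from 2.27 to 15.4 CPM. Lgr5 had 8.45 ± 2.33 CPM, with extremes of 3.52 and 16.3 CPM. Rnf43 had 31.1 ± 9.08 CPM and ranged from 11.4 to 66.6 CPM. Tbx3, with 23.8 ± 8.25 CPM, ranged from 5.53 to 49.7 CPM. Within a group of 8 mice the coefficient of variation of these 4 genes had a median over the 21 groups of 24.6% (Lgr5) to 33.4% (Axin2).

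The enzymes Cyp2e1 and Cyp1a2 and also Rgn varied less. Cyp2e1 had 7211 ± 1292 CPM (lowest 3383, highest 10940) and a median coefficient of variation within groups of 16.3%, the smallest of the 10. Cyp1a2 had 713.6 ± 147.8 CPM (319.7 to 1205), Rgn 1126 ± 233 CPM (579.1 to 1705) and Slc1a2 205.4 ± 52.1 CPM (103.7 to 355.1). Lect2 had 84.6 ± 25.7 CPM, from 37.4 to 171.4 CPM, and much of that range lay between the sexes (below). Oat had 995 ± 293.1 CPM (481.6 to 1893) and the largest ratio between group means, 1.91-fold between WT at 6 months (1382 ± 399.5 CPM, n = 8) and Q175 at 10 months (722.1 ± 221.8 CPM, n = 8). For the other 9 genes the highest group mean exceeded the lowest by 1.34-fold (Cyp1a2) to 1.69-fold (Rnf43).

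**Figure D1:**
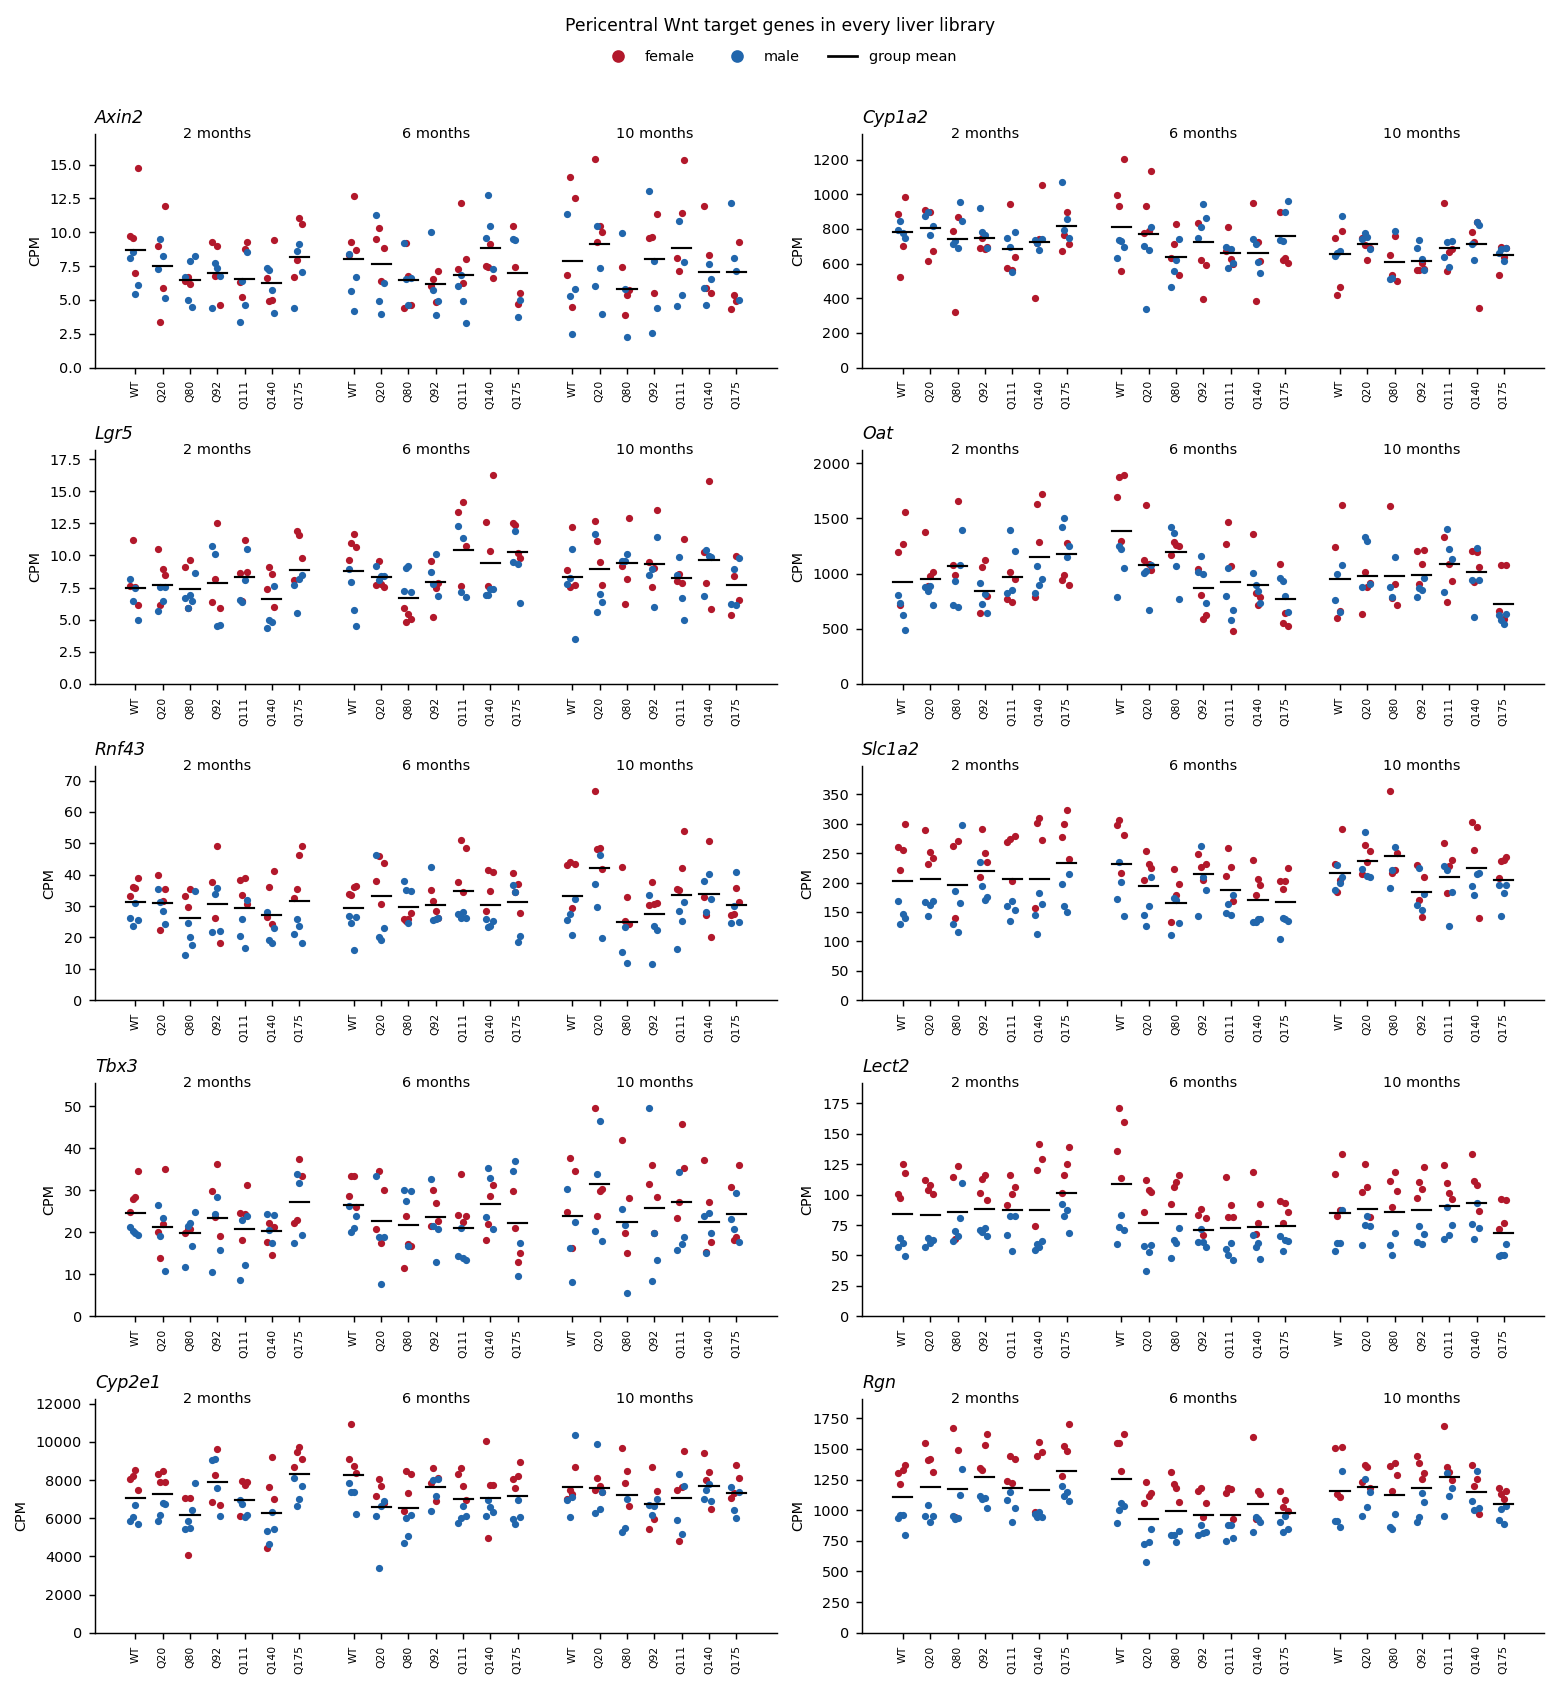
Level of each of the 10 genes in every library, in CPM, by genotype (horizontal) and age, with points coloured by sex and a black bar for the group mean. The spread within groups of 8 mice is larger than the differences between most group means, and the points of the sexes separate for Lect2 and Rgn in most groups.

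None of the 10 genes passed the threshold for repeat length. The slope of expression on repeat number across the 6 knock-in lines, fitted with edgeR's quasi-likelihood test with sex in the model and Benjamini-Hochberg adjustment over all genes tested, called 0 of 10 at each age. Over all genes it called 0.272% of 15053 at 2 months. At 6 months it called 6.27% of 15498 genes, and 0.595% of 15629 at 10 months. At an unadjusted p under 0.05 the slope picked 2, 3 and 1 of the 10 at these ages. The share of all genes at that unadjusted threshold is not given, here or below. Such counts are therefore not read as a result about the 10 genes. The 95% intervals of the slopes, in log2 per 100 repeats, stayed within -0.25 to 0.42 at 2 months, -0.56 to 0.47 at 6 months and -0.55 to 0.15 at 10 months for all 10, so changes larger than these bounds would lie outside the intervals. The median slope of the 10 genes was 0.06, 0.01 and -0.14 at the 3 ages, against a median of all genes between -0.01 and 0.00.

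Oat came nearest to the threshold in the slope. At 6 months its level was 673.2 CPM in the lowest, 1056 CPM in the median and 1621 CPM in the highest Q20 liver, and 528.3, 724.2 and 1087 CPM in the Q175 livers. The Q175 livers lay lower, and the groups overlapped between 673.2 and 1087 CPM. The slope of Oat was -0.34 ± 0.11 per 100 repeats (SE, interval -0.56 to -0.11, adjusted p = 0.0652), and Q175 differed from Q20 by -0.48 ± 0.19 (adjusted p = 0.0816). At 2 months the same contrasts had the other sign, 0.22 ± 0.10 for the slope (adjusted p = 0.275) and 0.34 ± 0.18 for Q175 (adjusted p = 0.391), with means of 1177 ± 226.3 CPM in Q175 and 947.2 ± 193.9 CPM in Q20. The test of that change of slope between 6 and 2 months gave -0.56 ± 0.15 with an unadjusted p of 0.000386 and an adjusted p of 0.0829. With DESeq2, or with the replicate block, Oat passed in the slope at 6 months (adjusted p = 0.0423 and 0.0257), and without Q20 library M3 or Q175 library F1 it passed for Q175 at 6 months (-0.55 and -0.56).

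Lect2 came nearest in the comparison of the longest with the shortest allele. At 10 months its level was 81.4 to 124.7 CPM in the 4 Q20 females and 72.05 to 96.49 CPM in the 4 Q175 females, and 58.42 to 82.4 CPM in the Q20 males and 49.35 to 59.25 CPM in the Q175 males. In both sexes the Q175 values lay lower and overlapped with Q20. The difference was -0.38 ± 0.11 (interval -0.59 to -0.17, adjusted p = 0.0581), and at 2 months it was 0.31 ± 0.12 with the other sign (adjusted p = 0.215). At 10 months it passed with DESeq2 (adjusted p = 0.0397), without the filter on low counts (adjusted p = 0.0418), and without each of Q20 F4, Q20 M1, Q175 F2 or Q175 F4. Skeletal muscle markers were higher in Q175 at 10 months for 4 of the 5 tested, and without the libraries that held RNA of muscle, red cells or bile duct the difference was -0.43 (adjusted p = 0.227).

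For each longer allele against Q20, 0 of 10 genes passed at any age. At 2 months these tests called 0.0991% of 15137 genes for Q80, 0% for Q92, Q111 and Q140, and 0.31% for Q175. At 6 months they called 9.3% of 15640 genes for Q80, 18% for Q92, 1.24% for Q111, 5.98% for Q140 and 10.9% for Q175. At 10 months they called 0.0127% of 15689 genes for Q80, 4% for Q92, 1.11% for Q111, 0.00637% for Q140 and 1.26% for Q175. Unadjusted p under 0.05 was reached by 1, 2 and 4 of the 10 genes for Q175 at 2, 6 and 10 months, counts without the share of all genes. The 95% intervals of the Q175 differences stayed within -0.37 to 0.74 at 2 months, -0.85 to 0.62 at 6 months and -0.93 to 0.25 at 10 months. Their median over the 10 genes was 0.18, -0.03 and -0.27.

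At 10 months the Q20 livers held the highest group means of Axin2 (9.11 ± 3.46 CPM), Tbx3 (31.6 ± 11.6 CPM) and Rnf43 (42.2 ± 14.01 CPM). Rnf43 ranged over 19.7, 44.2 and 66.6 CPM (lowest, median and highest) in Q20, and over 11.7, 24.1 and 42.3 CPM in the 7 Q80 livers. It differed between them by -0.81 ± 0.20 (adjusted p = 0.156), the largest difference of any of the 10 genes between a longer allele and Q20, and between Q92 and Q20 by -0.61 ± 0.19 (adjusted p = 0.0607). DESeq2 called both, at adjusted p = 0.0415 and 0.0348. These comparisons share the 8 Q20 livers, and Rnf43 in WT at that age (33.3 ± 9.14 CPM) lay between.

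**Figure D2:**
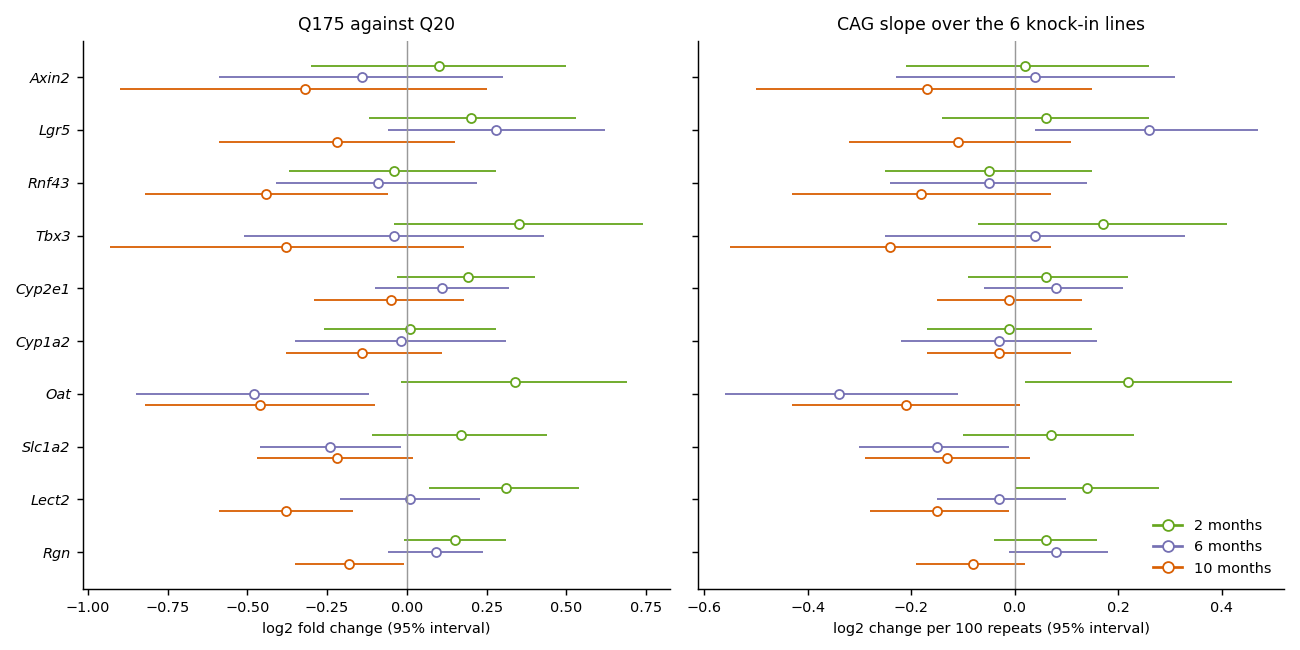
Log2 difference of Q175 from Q20, and log2 change per 100 repeats across the 6 knock-in lines, for each gene and age, with 95% intervals. Open points mark values that did not pass an adjusted p of 0.05, and every point is open.

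The slope did not differ detectably between the sexes or between ages. The test of a sex difference in slope called 0 of 10 genes at each age (0% of all genes at 2 months, 0.226% at 6 and 0.173% at 10), and the tests between ages called 0 of 10 (of 16154 genes, 0.204% between 6 and 2 months, 1.05% between 10 and 2 and 4.17% between 10 and 6). Unadjusted p under 0.05 was reached by 1, 3 and 1 genes for the sexes and by 1, 2 and 2 for the ages. The share of all genes at that threshold is not given. The smallest adjusted p for the sexes was that of Rgn at 6 months, with a slope in females lower by 0.23 ± 0.09 than in males (coefficient -0.23, adjusted p = 0.241).

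Some other genes of the zones or of the pathway passed for repeat length, all of them at 6 months. The slope called 6.27% of all 15498 genes at that age. In lists this small, counts of 1 or 2 genes are not read apart from that share. Of 23 tested other pericentral genes the slope called none at 2 or 10 months and 2 at 6 months, both higher with longer repeats: Gstm1, a glutathione transferase (0.27 ± 0.07, adjusted p = 0.0202), and Cyp3a11, the main inducible drug-metabolising P450 (0.37 ± 0.11, adjusted p = 0.0329). Of the periportal genes it called 2 of 22 at 6 months, both lower: Cps1, the first enzyme of the urea cycle (-0.24 ± 0.07), and Hal, which degrades histidine (-0.35 ± 0.11). The 8 tested Wnt ligands and R-spondins gave no call at any age. In the receptor list, 1 of 11 was called at 6 months, the co-receptor Lrp6 (-0.16 ± 0.05). In the list of beta-catenin partners 2 of 17 were called at 6 months, Dvl1 (0.20 ± 0.04), which relays the receptor signal, and Axin1 (0.16 ± 0.05), a scaffold of the destruction complex. At the same age 11 of 12 Kupffer cell markers were called lower with longer repeats, with a median slope of -0.51. The Q20 livers are the short end of this slope, and most of these markers were higher in them than in WT (below). Whether the markers also fell among the longer alleles alone was not examined here.

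At 6 months 3 of the 10 genes were lower in Q20 than in the WT mice they were housed with: Rgn, Lect2 and Cyp2e1. The same test called 32.2% of all 15640 genes at that age, 0% of 15137 at 2 months and 0.0127% at 10 months, and 0 of the 10 genes at 2 and 10 months, where the smallest adjusted p was 0.999 and 1. At those ages no unadjusted p of the 10 was under 0.05, and at 6 months 4 were, a count without the share of all genes at that unadjusted threshold. The share called among the 10 at 6 months is near the share of all genes, and the groups at 6 months also differ in the form of the library names, with which the difference cannot be told apart.

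Rgn at 6 months ranged over 894.2, 1191 and 1622 CPM (lowest, median and highest) in WT and over 579.1, 952.3 and 1227 CPM in Q20. Within each sex the groups did not overlap: WT females had 1320 to 1622 CPM and Q20 females 1055 to 1227 CPM, WT males 894.2 to 1061 CPM and Q20 males 579.1 to 849.4 CPM. Rgn was lower in Q20 by a log2 difference of -0.42 ± 0.08 (adjusted p = 3.21e-05).

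Lect2 at 6 months ranged over 59.82, 98.3 and 171.4 CPM in WT and over 37.43, 72.04 and 112 CPM in Q20. It too was separate within the sexes, with 113.6 to 171.4 against 85.44 to 112 CPM in females and 59.82 to 82.99 against 37.43 to 58.64 CPM in males. Its log2 difference was -0.48 ± 0.11 (adjusted p = 0.000835), and Lect2 and Rgn passed under every alternative that was run. The name form as a covariate was not among them, because at 6 months it coincides with the difference between Q20 and WT.

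Cyp2e1 at 6 months ranged over 6235, 8090 and 10940 CPM in WT and over 3383, 6844 and 8047 CPM in Q20. Females did not overlap (8363 to 10940 against 6787 to 8047 CPM), and males did (6235 to 7818 against 3383 to 6901 CPM). Its difference of -0.31 ± 0.11 passed (adjusted p = 0.0221) but rested in part on Q20 male M2, the liver at 3383 CPM, without which it was -0.24 (adjusted p = 0.0544). It also did not pass on FPKM (-0.22, adjusted p = 0.0888), with only these 2 groups in the fit (-0.32, adjusted p = 0.074), or without Q20 females F1, F3 and F4 (-0.31, adjusted p = 0.0779), chosen with earlier results known as libraries that stand apart. In the latter 2 fits the size of the difference stayed near that of the first. Slc1a2 (-0.23 ± 0.11, adjusted p = 0.108) and Oat (-0.33 ± 0.19, adjusted p = 0.177) had the same sign without passing. Axin2, Lgr5, Tbx3, Rnf43 and Cyp1a2 had differences between -0.20 and 0.21. Females also did not overlap for Lgr5 (9.652 to 11.7 CPM in WT, 7.546 to 9.597 CPM in Q20), although its log2 difference over both sexes was -0.03. How many of all genes lacked overlap within a sex was not counted.

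**Figure D3:**
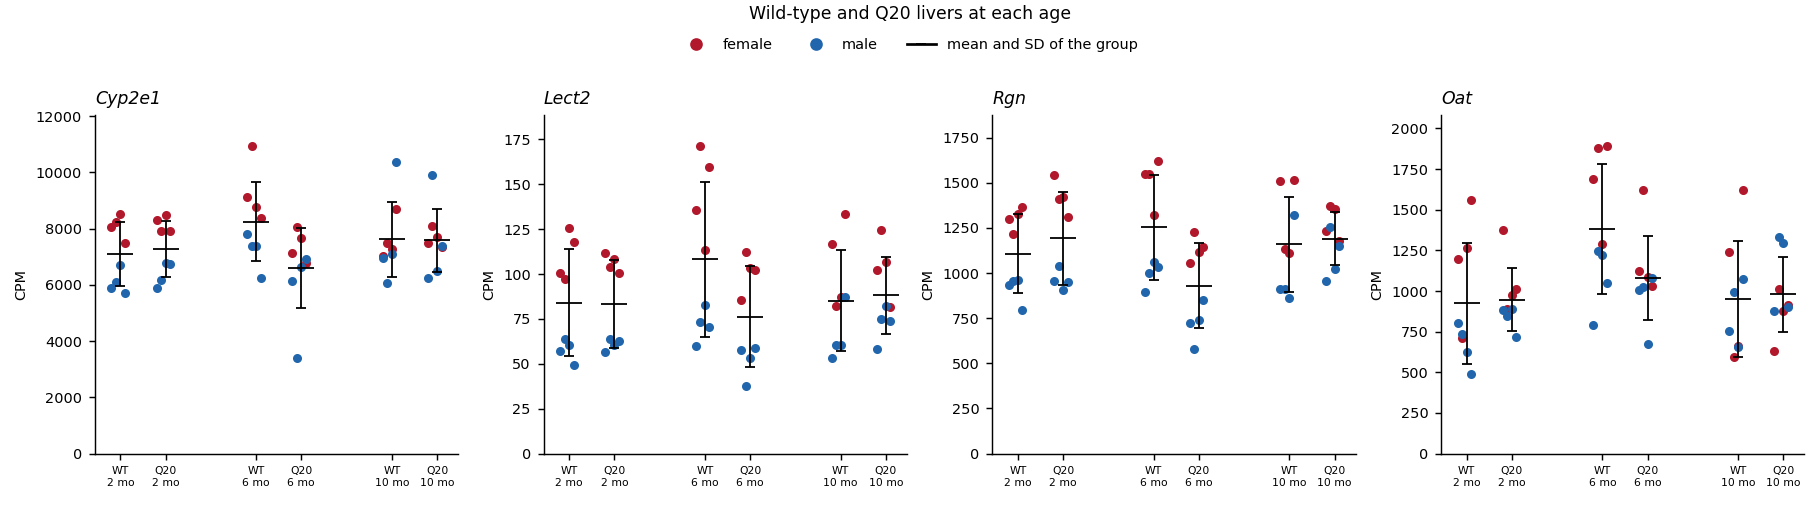
CPM of Cyp2e1, Lect2, Rgn and Oat in WT and Q20 livers at each age, points coloured by sex, with group mean and SD (n = 8 per group). At 6 months the Q20 points of Lect2 and Rgn lie below the WT points of the same sex, and at 2 and 10 months they overlap.

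Part of the other pericentral genes differed in the same direction in this comparison. Of 23 tested other pericentral genes 9 were lower in Q20 and 0 higher (median -0.22, against 0.02 for all genes), led by Akr1c6, a hydroxysteroid dehydrogenase (-0.47 ± 0.08, adjusted p = 4.55e-06), Mgst1, a microsomal glutathione transferase (-0.47 ± 0.08), Pon1, the serum paraoxonase (-0.43 ± 0.08), and Gsta3, a glutathione transferase (-0.29 ± 0.08). Of 22 periportal genes 0 were called (median 0.10). Markers of non-parenchymal cells were higher in Q20: 10 of 12 Kupffer cell markers (median 0.64, summed level 406.6 to 1297 CPM in Q20 and 255 to 827.8 CPM in WT), 10 of 14 endothelial markers (median 0.82, 279.7 to 589 against 149 to 302.9 CPM) and 6 of 10 stellate cell markers (median 0.63). Summed hepatocyte markers overlapped, at 99430 to 130400 CPM in Q20 and 100700 to 122300 CPM in WT, with 3 of 10 lower and 0 higher. The part of these cell types in the lower Rgn, Lect2 and Cyp2e1 was not tested. On FPKM the median of all genes in this comparison was 0.10, and 3569 genes were higher and 1137 lower, against 2794 and 2237 with counts. Relative to that median, Rgn was at -0.42, Lect2 at -0.47 and Cyp2e1 at -0.32.

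Among the pathway genes in this comparison, the ligands gave 0 calls of 8. The co-receptor Lrp5 was higher in Q20 (0.46 ± 0.10, adjusted p = 0.000444), as were Nkd2, an inhibitor of Dishevelled (1.06 ± 0.25), and Myc, a growth-promoting transcription factor (1.42 ± 0.50). Ctnnb1, which encodes beta-catenin, was higher by 0.17 ± 0.04, and Csnk1a1, a kinase that primes beta-catenin for destruction, was lower (-0.24 ± 0.04). Axin2, the feedback target, differed by -0.03 ± 0.22 (interval -0.47 to 0.41).

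Sex gave the most calls among the 10 genes. At 2 months 8 of them were higher in females and 0 lower, at 6 and at 10 months 5 were higher and 0 lower, in a comparison that called 57.6%, 60.9% and 57.2% of all genes at the 3 ages. All genes were called in nearly equal numbers in the directions (4514 higher and 4200 lower in females at 2 months, 4915 and 4614 at 6, 4710 and 4260 at 10). At 6 and 10 months the share of the 10 called was near that of all genes. On FPKM the median of all genes rose to 0.09, 0.12 and 0.15 at the 3 ages and 6289, 7263 and 7842 genes were higher against 2229, 2190 and 1855 lower, so values on that scale are read against that median.

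Lect2 had the largest sex difference. Its level was 109.3 ± 17.3 CPM in the 27 female and 68.6 ± 13.2 CPM in the 29 male libraries at 2 months, 100.1 ± 24.8 and 59.9 ± 9.52 CPM (28 each) at 6 months, and 103.7 ± 16.4 (28) and 66.8 ± 12.3 CPM (27) at 10 months. The female mean was higher in 21 of 21 groups and the sexes did not overlap in 16 of them. The log2 differences were 0.69 ± 0.06, 0.73 ± 0.06 and 0.65 ± 0.06 (adjusted p = 2.01e-13, 3.17e-15 and 4.62e-14).

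Rgn followed, with 1393 ± 179 CPM in females and 1022 ± 112.2 CPM in males at 2 months. At 6 months it had 1186 ± 190.5 and 849.2 ± 101.7 CPM, and at 10 months 1283 ± 151.5 and 1035 ± 144.2 CPM. Its differences were 0.45 ± 0.04, 0.48 ± 0.04 and 0.32 ± 0.05, the female mean was higher in 21 of 21 groups, and 15 groups had no overlap. Rgn lies on the X chromosome, and the other genes of this direction do not.

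Slc1a2 was at 256 ± 43.1 CPM in females and 166.6 ± 37.1 CPM in males at 2 months, and at 232.4 ± 47.0 and 200.9 ± 33.7 CPM at 10 months. Its female mean was higher in 21 of 21 groups, with differences of 0.63 ± 0.08, 0.48 ± 0.06 and 0.21 ± 0.07 at the 3 ages. Rnf43 was higher in females by 0.47 ± 0.09, 0.34 ± 0.09 and 0.47 ± 0.11, in 19 of 21 groups, with 34.6 ± 7.37 against 24.9 ± 5.96 CPM at 2 months. Cyp2e1 was higher by 0.23 ± 0.06 at 2 and 0.33 ± 0.06 at 6 months, with 7988 ± 1126 CPM in females and 6377 ± 989 CPM in males at 6 months. At 10 months its difference was 0.14 ± 0.07 (adjusted p = 0.0583). Whether these differences change with age was not tested.

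The other genes were called at fewer ages. Tbx3 was higher in females at 2 months (0.26 ± 0.11) and at 10 months (0.38 ± 0.15), with 0.10 ± 0.13 at 6 months. Lgr5 (0.30 ± 0.09) and Oat (0.24 ± 0.10, adjusted p = 0.0359) passed at 2 months only, with 0.17 ± 0.09 and 0.16 ± 0.10 at 6 months. Axin2 had 0.21 ± 0.11, 0.18 ± 0.12 and 0.31 ± 0.16 and passed at none of the 3 ages with counts (adjusted p = 0.0905, 0.19 and 0.0865), while on FPKM it passed at all 3 (adjusted p = 0.0438, 0.00907 and 0.00542). Cyp1a2 had -0.11 ± 0.08, 0.07 ± 0.09 and -0.08 ± 0.07, and its sexes overlapped in all 21 groups. Oat and Tbx3 at 2 months lost their calls without the filter on low counts, and Tbx3 at 10 months without the libraries that held muscle, red cell or bile duct RNA. On FPKM 8 of 10 genes passed at 6 months and 9 at 10 months. Of all genes, 7263 were higher and 2190 lower at 6 months on that scale, and 7842 and 1855 at 10 months. These FPKM tests, those of Axin2 included, are against 0 and not against the shifted median of all genes. Relative to that median the differences on FPKM were within 0.08 of those from counts for all 10 genes.

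Lists of related genes showed which neighbours shared the direction. Other pericentral genes did not share it: 9, 9 and 7 of 23 were higher in females at the 3 ages and 10 were lower at each. Cyp2c37, a P450, was higher by 1.44 ± 0.10 at 2 months and Nr1i3, the xenobiotic receptor CAR, by 1.03 ± 0.11, while Cyp3a11 (-0.96 ± 0.07) and Mgst1 (-0.60 ± 0.04) were lower. The list of secreted inhibitors and other feedback targets of Wnt signalling had 7 of 9 tested genes higher in females and 0 lower at 2 months, 5 of 10 and 1 lower at 6 months, and 6 of 11 and 1 lower at 10 months. In it Ccnd1 (cyclin D1) was higher by 2.70 ± 0.14 at 2 months, Notum, an enzyme that inactivates Wnt ligands, by 0.62 ± 0.06, Nkd1 by 0.46 ± 0.07 and Tnfrsf19 by 0.45 ± 0.08. Dkk4, a secreted Wnt inhibitor, was lower at 6 months (-5.42 ± 0.49). The receptors went both ways at 2 months, with Fzd4 (0.59 ± 0.08) and Fzd8 (0.74 ± 0.11) higher and the co-receptor Lrp5 (-0.46 ± 0.05) lower in females. Of 8 ligands, Wnt5b was higher (0.31 ± 0.11) and Wnt9b, made by central vein endothelium, was lower (-0.36 ± 0.12) at 2 months. Kupffer cell markers were higher in females for 12, 12 and 11 of 12 at the 3 ages, and the part of the cell makeup in the sex differences was not tested.

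With age, 4 of the 10 genes changed in the knock-in lines between 2 and 6 months, 1 between 2 and 10 months and 3 between 6 and 10 months, with genotype and sex in the model. These tests called 53.1%, 22.8% and 54.4% of 16154 genes (4472 higher and 4106 lower at 6 than at 2 months, 2168 and 1514 at 10 than at 2 months; on FPKM 4989 and 2741, 2473 and 643). Lect2 and Rgn fell from 2 to 6 months and rose again by 10 months. Lect2 had knock-in means of 88.96 ± 25.05, 75.27 ± 21.3 and 85.62 ± 23.0 CPM at 2, 6 and 10 months, with differences of -0.26 ± 0.05 (6 against 2, adjusted p = 3.23e-06) and 0.19 ± 0.05 (10 against 6, adjusted p = 0.000672). Rgn had 1216 ± 239.5, 978.3 ± 192.1 and 1162 ± 181.7 CPM, with -0.32 ± 0.04 (adjusted p = 3.81e-14) and 0.26 ± 0.04 (adjusted p = 4.36e-10). Slc1a2 had 210.9 ± 59.9, 182.9 ± 42.8 and 217 ± 45.2 CPM, with -0.20 ± 0.06 (adjusted p = 0.00203) and 0.26 ± 0.06 (adjusted p = 7.37e-05). Its first difference did not pass on FPKM (-0.06, adjusted p = 0.344).

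Lgr5 rose slightly from 2 to 6 months (7.79 ± 2.07 to 8.86 ± 2.51 CPM, 0.18 ± 0.08, adjusted p = 0.0347). Cyp1a2 was lower at 10 than at 2 months (666.5 ± 109 against 752.9 ± 141.4 CPM, -0.17 ± 0.06, adjusted p = 0.0254) and did not pass on FPKM (-0.12, adjusted p = 0.121). Cyp2e1, Oat, Axin2, Tbx3 and Rnf43 passed in none of the 3 contrasts. Of 23 other pericentral genes 11 were lower and 2 higher at 6 than at 2 months, among them Akr1c6 (-0.32 ± 0.03), Pon1 (-0.27 ± 0.04) and Mgst1 (-0.21 ± 0.03), and 7 were higher and 3 lower at 10 than at 6 months. Of the ligands, Wnt5a (0.54 ± 0.11) and Wnt4 (0.41 ± 0.09) were higher at 6 than at 2 months.

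The WT livers did not follow this course. Lect2 had 83.96 ± 29.8, 108.3 ± 43.2 and 85.16 ± 28.3 CPM in WT at 2, 6 and 10 months, and Rgn 1108 ± 219.7, 1254 ± 291.3 and 1159 ± 264.3 CPM. Oat had 923.1 ± 372.7, 1382 ± 399.5 and 949.7 ± 355.6 CPM. All 3 were highest at 6 months, where the knock-in means of Lect2 and Rgn were lowest, and in WT alone no gene of the 10 passed for age. The difference between WT and knock-in lines in the change from 2 to 6 months was 0.62 ± 0.13 for Lect2 (adjusted p = 0.000123), 0.50 ± 0.09 for Rgn (adjusted p = 1.68e-05), 0.70 ± 0.21 for Oat (adjusted p = 0.0088) and 0.42 ± 0.15 for Slc1a2 (adjusted p = 0.0329), which were 4 of the 10 genes against 23.1% of all 16235. From 6 to 10 months it was -0.50 ± 0.13 for Lect2 and -0.35 ± 0.09 for Rgn, 2 of 10 against 15.7%, and from 2 to 10 months it called 0 of 10 against 0.0123%. This test was added after the values were seen, shares the 6-month libraries with the comparisons above, and the form of the library names cannot be told apart from it. The call of Slc1a2 was lost on FPKM (0.15) and without the filter on low counts (adjusted p = 0.0549).

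**Figure D4:**
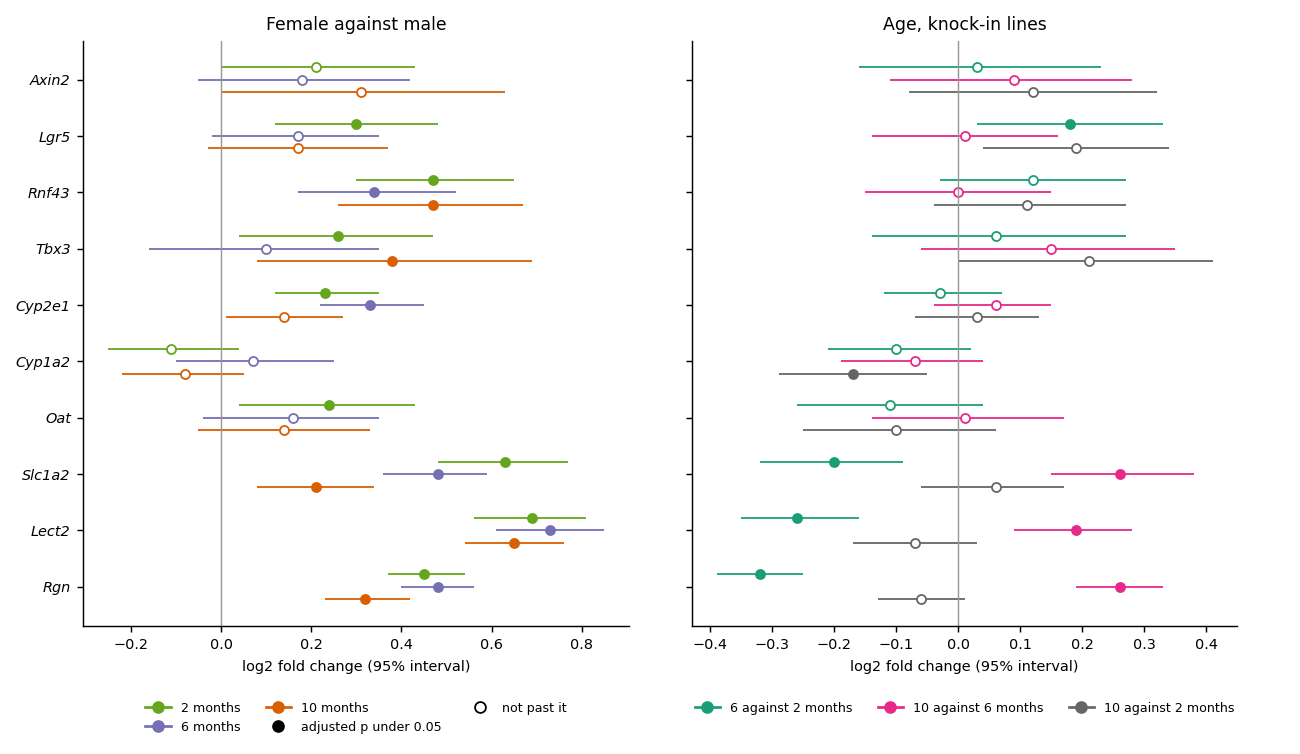
Log2 difference of females from males at each age, and between ages in the knock-in lines, for each gene, with 95% intervals. Filled points passed an adjusted p of 0.05, and the filled points of the sex panel all lie above 0.

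Beyond the groups, the 10 genes varied between livers in 2 sets. The means of the 42 strata of genotype, age and sex were removed from log2 CPM. Over all libraries 22 of 45 pairs were then correlated by a permutation test within strata (100000 resamples, Benjamini-Hochberg over the 45 pairs), and all 22 were positive. How many pairs of other genes pass such a test was not counted, so the count is not read as particular to the 10 genes. One set held Axin2, Tbx3 and Rnf43. Axin2 and Tbx3 had a Pearson r of 0.82 and a Spearman rho of 0.791, Tbx3 and Rnf43 0.692 and 0.664, and Axin2 and Rnf43 0.617 and 0.586, each with the smallest p the permutations can give, 1e-05. Within 2, 6 and 10 months alone r of Axin2 and Tbx3 was 0.71, 0.836 and 0.866, and without the 2 farthest libraries it was 0.803.

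The other set held Cyp2e1, Cyp1a2, Slc1a2, Lect2, Rgn and Oat, in which all 15 pairs passed. The strongest were Lect2 and Rgn (r = 0.757, rho = 0.674), Cyp1a2 and Lect2 (0.698, 0.641), Cyp1a2 and Rgn (0.687, 0.587) and Cyp2e1 and Rgn (0.611, 0.516), and the weakest Cyp2e1 and Oat (0.31, 0.287). Between the sets, Axin2 had r of 0.092 with Cyp2e1, 0.06 with Cyp1a2, 0.043 with Lect2 and -0.056 with Slc1a2, none past the threshold. Oat was the exception, with 0.232 to Axin2, 0.238 to Tbx3 and 0.244 to Rnf43, all past the threshold. Lgr5 belonged to neither: its r with Axin2 was 0.004 and with Tbx3 -0.05, and Slc1a2 was its only partner past the threshold (r = 0.224, adjusted p = 0.0256). At 2, 6 and 10 months alone 23, 15 and 18 of the 45 pairs passed, and on FPKM 25 did.

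**Figure D5:**
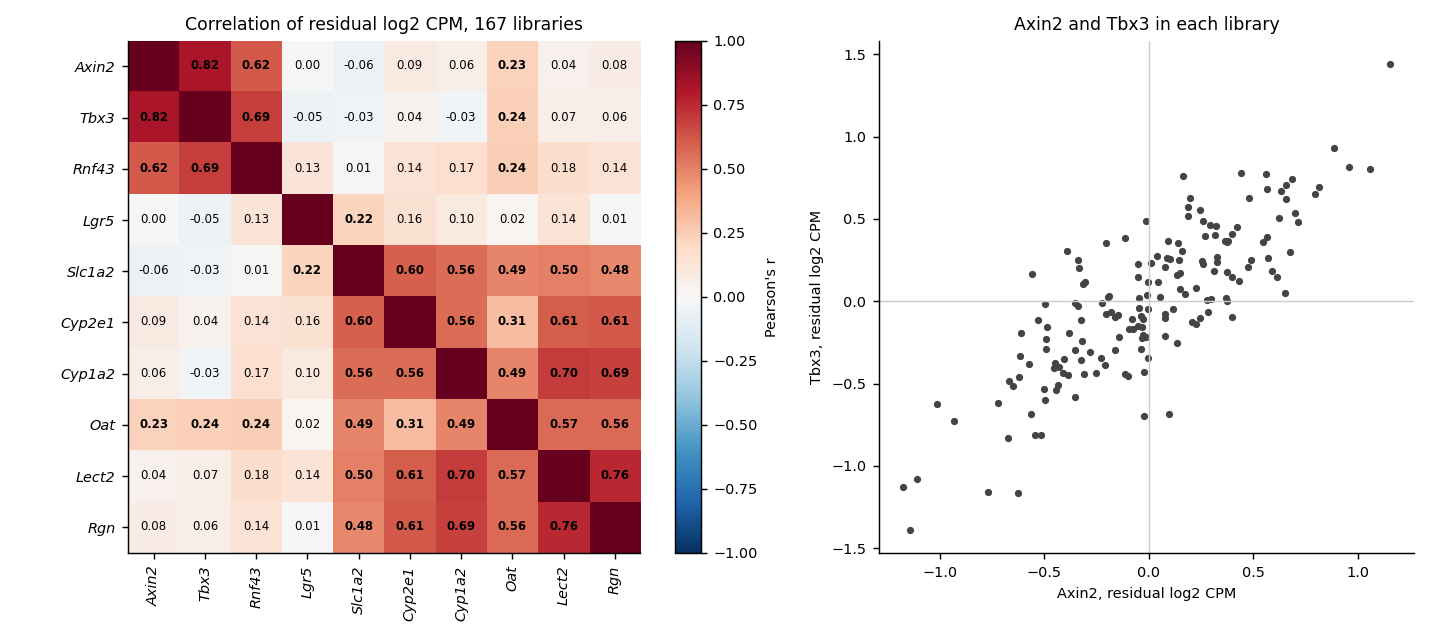
Pearson r of residual log2 CPM between each pair of the 10 genes over all libraries, bold where the adjusted p was under 0.05, and residuals of Axin2 and Tbx3 with 1 point per library. Axin2, Tbx3 and Rnf43 form 1 block and Cyp2e1, Cyp1a2, Slc1a2, Lect2, Rgn and Oat another.

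The sets differed in how they went with the rest of the pericentral zone, given here as a description across genes that share libraries. The median r with the 23 other pericentral genes was 0.563 for Rgn, 0.516 for Lect2, 0.512 for Cyp1a2, 0.461 for Cyp2e1, 0.379 for Slc1a2 and 0.311 for Oat. It was 0.00 for Axin2, 0.059 for Tbx3, 0.068 for Lgr5 and 0.093 for Rnf43. With 21 periportal genes the medians of all 10 lay between -0.143 (Tbx3) and 0.148 (Oat), and with all 10919 genes between -0.009 and 0.016.

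The genes most like each member in this residual variation, among 10919 genes whose mean log2 CPM was 1 or higher, are given as a description. Cyp2e1 was nearest to Slco1b2, a hepatic uptake transporter (r = 0.791), Sord, sorbitol dehydrogenase (0.789), and Nr1i3 (0.765). Slc1a2 was nearest to Slc16a10, an aromatic amino acid transporter (0.74), to Glul, glutamine synthetase, the classical gene of the innermost pericentral ring (0.678), and to Slco1b2 (0.675). Cyp1a2 was nearest to Slco1b2 (0.709), Lect2 (0.698) and Gulo, the last enzyme of vitamin C synthesis (0.691). Lect2 was nearest to Gulo (0.772), Rgn (0.757) and Akr1c20 (0.743), and Rgn to Pon1 (0.777), Lect2 (0.757) and Atg3 (0.717). Oat was nearest to Lhpp (0.841), a phosphatase gene whose annotated start lies 34.2 kb from Oat on chromosome 7, then to Cth, cystathionine gamma-lyase (0.672), and Hgd, of tyrosine breakdown (0.626). Axin2 was nearest to Tbx3 (0.82), Ccn1 (0.649) and D630039A03Rik (0.644), Tbx3 to Axin2, Rnf43 and Inhbe, an inhibin subunit (0.631), and Rnf43 to Tbx3, Bahcc1 (0.634) and Gse1 (0.628).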

How the data were processed

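Polyadenylated RNA from mouse livers was measured by RNA sequencing. Per the submitters' processing notes CASAVA 1.8.2 was used; aligner, counting program and genome build: not given in the sources used here. Deposited by the authors were 1 table of expected counts per gene, of which 14.1% are not whole numbers, and 1 table of FPKM per gene. Groups, sexes and ages came from the labels. Counts were rounded and CPM scaled with trimmed-mean (TMM) library sizes. Each age was fitted with edgeR 4.0.16 (quasi-likelihood test, R 4.3.3) with genotype and sex as terms, after edgeR's filter on low counts, and p-values were Benjamini-Hochberg adjusted over all genes tested (threshold 0.05). The slope used the 6 knock-in lines, and the age model took the knock-in libraries of all ages, with terms for genotype and sex. Differences are log2 with SE, and 95% intervals are 1.96 SE to each side. Nothing in the labels says that animals of a group were independent beyond being separate mice, so p-values measure the spread between these samples. Members and gene lists were chosen with earlier results of these data known. Each comparison was made for all 10 members; where none passed, the text gives their count and the bounds of their intervals or their smallest adjusted p, not each member. From each other list up to 4 genes past the threshold with the smallest p were eligible, and for likeness the 3 genes with the highest r. Alternatives were DESeq2 1.42.0, relative log expression scaling, no filter, and limma 3.58.1 on log2(FPKM + 0.1) and log2(FPKM + 1). Others were only the groups compared, a replicate block, the name form as a covariate, and leaving out libraries. The name form was a covariate at 2 and 10 months only, and not for Q20 against WT. The older quasi-likelihood fit, the age difference between WT and knock-in lines, correlations within each age and those with ligands were chosen after seeing the data. The scripts were tested on simulated data. Permutations and figures used Python 3.11.15 with numpy 2.4.6, scipy 1.17.1, pandas 2.3.3 and matplotlib 3.10.9. Libraries held at least 32025244 counts.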

Additional observations from a re-analysis of the deposited data

Results flagged for a closer look

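The cutoff for a library far from the rest of its group gives about 1 in 20 sets when all values come from 1 normal distribution. The groups pool the sexes, so that rate need not hold for genes that differ by sex. In 13 of 210 sets of a gene and a group, 1 library lay far from the rest. The low ones were Cyp2e1 in Q20 male M2 at 6 months (3383 CPM, next 6137 CPM), Cyp1a2 in Q140 female F4 at 10 months (345.5 CPM, next 622.3 CPM) and Cyp1a2 in Q80 female F2 at 2 months (319.7 CPM, next 692.4 CPM). Cyp1a2 was high in Q111 F1 at 10 months (951.4 CPM) and Q92 M1 at 2 months (917.8 CPM). Oat was high in Q140 F1 at 6 months (1360 CPM), Q20 F1 at 2 months (1373 CPM) and Q20 F2 at 6 months (1621 CPM). Slc1a2 was high in Q80 F1 (355.1 CPM) and WT F4 (291.8 CPM) at 10 months. The others were high too: Axin2 in WT F4 at 2 months (14.72 CPM), Lgr5 in Q140 F3 at 10 months (15.78 CPM) and Rgn in Q140 F1 at 6 months (1595 CPM), the liver whose Oat also stood apart.

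The change from 2 to 6 months differed between WT and the knock-in lines by 0.62 for Lect2, 0.50 for Rgn, 0.70 for Oat and 0.42 for Slc1a2, higher in WT, by edgeR's test of the difference. The change from 6 to 10 months differed by -0.50 for Lect2 and -0.35 for Rgn. The name form of the 6-month knock-in libraries cannot be told apart from these differences.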

How the results depend on the processing

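Of 778 values of 70 followed fold changes under the alternatives, 735 kept their direction and their side of the threshold, 17 lost the call, 19 gained one and 7 changed sign. The count of the 10 genes called went from 0 to 1 for Q80 against Q20 at 6 months with only these groups in the fit (Lgr5, -0.35, adjusted p = 0.0499). With DESeq2 it went from 0 to 1 for the slope at 6 months (Oat), Q80 and Q92 at 10 months (Rnf43) and Q175 at 10 months (Lect2), the last also without the filter. For Q175 against Q20 the range without single libraries was 0 to 1 at 6 and at 10 months. For Q20 against WT at 6 months it was 2 to 4, and Slc1a2 passed without WT F3 (-0.29), WT M4 (-0.30) or Q20 M4 (-0.31). On FPKM, with either pseudocount, females against males gave 8 calls at 6 months and 9 at 10 months, and 10 against 2 months gave 0 with log2(FPKM + 1). In WT alone all 3 age contrasts gave 0 calls, with signs opposite to the knock-in lines for Lect2 (0.35 and -0.29), Rgn (0.17 and -0.09) and Slc1a2 (0.22 and -0.05) at 6 against 2 and 10 against 6 months. The slope of Lect2 at 10 months was 0.07 without the Q175 libraries. Ligand pairs called within single ages were 2, 0 and 0, against 17 over all. The cause of these changes was not tested. Same-numbered livers of Q20 and Q175 correlated above 0.1 in 4, 5 and 5 of 8 pairs at the 3 ages, and those of Q20 and WT in 4, 2 and 1. Of 8 Q20 livers, 1, 2 and 1 correlated best with their own number in Q175, and 1, 0 and 0 in WT. Whether the numbers pair the animals was not tested, and the main fits treated the animals as unpaired. With the replicate block the count went from 0 to 1 for the slope and for Q175 against Q20 at 6 months (Oat, -0.36 and -0.50), and no other count of calls moved by over 1.5 times.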

Other observations

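The genes most like Lgr5 in residual variation over all libraries were Rgp1 (r = 0.567), Gba2 (0.525) and Acnat1 (0.493), out of 10919 genes. Lgr5 lies on chromosome 10, while these genes lie on chromosome 4, at chr4:43578715-43587487, chr4:43566928-43578873 and chr4:49447105-49473912 (GENCODE M21, GRCm38). The gene most opposed to Axin2 (chromosome 11), Rusc2 (r = -0.631), also lies on chromosome 4, at chr4:43381979-43427088. How often the genes most alike or most opposed lie near each other was not counted. These values are given as a description over livers that share library preparation, and no test was run on them.

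Of 80 pairs of the 10 genes with 8 detected Wnt ligands and R-spondins, 8 were positively and 9 negatively correlated over all libraries (permutation test within strata, Benjamini-Hochberg over the 80). How many pairs of the 10 with other genes pass such a test was not counted. Slc1a2, the glutamate transporter, had r = 0.508 (rho = 0.465, adjusted p = 0.0004) with Wnt9b, a ligand of central vein endothelium, and r = -0.442 (rho = -0.438, adjusted p = 0.0004) with Wnt5a, a ligand best known for signalling without beta-catenin; on FPKM the latter r was -0.262 (adjusted p = 0.0152) and the former 0.461 (adjusted p = 0.0016). The r of Slc1a2 and Wnt9b was 0.722, 0.421 and 0.416 at 2, 6 and 10 months, and 0.469 without the 2 farthest libraries. Within single ages it passed at 2 months only (adjusted p = 0.0024, 0.251 and 0.152). Cyp1a2 (0.379), Lect2 (0.344) and Oat (0.24) were also positively correlated with Wnt9b, Oat not on FPKM (0.202, adjusted p = 0.0856). With Wnt2, another ligand, Cyp2e1 (0.309), Cyp1a2 (0.317) and Slc1a2 (0.27) passed over all libraries. These pairs with Wnt2 also passed on FPKM (adjusted p = 0.00893, 0.0153 and 0.0032). Without the 2 farthest libraries they did not (adjusted p = 0.106, 0.0896 and 0.0803). Axin2 had no such call with Wnt9b (r = 0.012). With Rspo3, which encodes R-spondin 3, Rnf43 alone passed over all libraries (r = 0.217, adjusted p = 0.0494). Without the 2 farthest libraries it did not (0.177, adjusted p = 0.106). On FPKM, Axin2 (0.319), Lgr5 (0.284), Rnf43 (0.321), Tbx3 (0.249) and Rgn (0.234) passed with Rspo3, and the other genes did not. The median r was also higher on FPKM than with counts, at 0.048 against 0.008 for the 80 ligand pairs. For the 45 pairs among the 10 genes it was 0.249 against 0.178. The part of the scaling in the calls with Rspo3 was not tested. On FPKM 11 positive and 3 negative pairs passed, and without the 2 farthest libraries 4 and 9.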
